A study of Mus musculus with 8 samples.

Results

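Wnt signaling was followed through 10 genes in cultures of S89G-DMP1 and wild-type (WT) mice. They were the ligands Wnt5a and Wnt5b, the frizzled receptors Fzd1, Fzd2, Fzd7 and Fzd8, the secreted antagonists Frzb, Sfrp1 and Dkk3, and the target gene Axin2. These genes were chosen by name with differences between the genotypes already in view, and all 10 were found by gene identifier among the 47729 genes of the neural stem cell (NSC) table and the 40562 genes of the astrocyte table. Their differences between genotypes are therefore given as values without a test.

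Wnt proteins are lipid-modified secreted ligands that bind frizzled receptors on the cell surface. With the co-receptors Lrp5 and Lrp6 they stabilise β-catenin, which then turns on target genes through TCF and LEF factors, whereas ligands such as Wnt5a often act through frizzleds and Ror receptors without β-catenin. Secreted frizzled-related proteins, to which Frzb and Sfrp1 belong, bind Wnt ligands outside the cell, and Axin2 is both a β-catenin target and part of the complex that degrades β-catenin. In the brain the pathway acts on progenitor growth, on meninges and vessels, and on the barrier between blood and brain.

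The study asked which transcripts differ when dentin matrix protein 1 (DMP1), a secreted proteoglycan, cannot carry its sugar chain at the mutated position. S89G-DMP1 mice carry a knocked-in point mutation in the Dmp1 gene, from which the selection cassette had been removed by a cross to an Flp line, and the controls were WT C57BL/6 mice. The labels give the C57BL/6 strain and an age of 10 weeks for every sample, while the methods give a slightly older age and both sexes for astrocyte culture. Astrocytes came from cortex and grew in DMEM with fetal bovine serum, and NSCs came from the subventricular zone and grew as neurospheres in DMEM/F12 with N2 supplement. There was 1 astrocyte library per genotype, and there were 3 NSC libraries per genotype, named as triplicates with no statement that they came from separate mice or cultures. The p-values below therefore measure only the spread between these samples, which may be technical. Whether the WT mice were littermates is not given in the sources used here.

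Each NSC library held between 2354615 and 2588130 counted reads, and the WT and S89G-DMP1 astrocyte libraries held 14008670 and 13016924. Dmp1 itself had 18, 21 and 16 counts in WT NSCs and 6, 3 and 5 in S89G-DMP1 NSCs, and 2 and 119 counts in the WT and S89G-DMP1 astrocyte libraries. The WT library labelled as astrocytes held few reads of most astrocyte markers, with 8 counts of Aqp4, 8 of Slc1a3 and 47 of Aldh1l1, against 4051, 3877 and 1792 in the S89G-DMP1 library. Gja1, on the same list, had 1165 counts (92.0 CPM) in WT and 1913 in S89G-DMP1, and S100b had 64 and 30. Of 8 astrocyte markers, 6 exceeded the WT library 2-fold or more in S89G-DMP1 and 1 was 2-fold or more below it, and their summed level was 117 and 1043 CPM (read counts relative to the TMM-scaled size of each library). Of 12 fibroblast and meningeal markers, 10 were 2-fold or more below WT, with sums of 5742 and 2182 CPM, and 6 of 7 neural progenitor markers were 2-fold or more above it, with sums of 721 and 2055 CPM. The 2 libraries also differed in sex-linked transcripts, since Xist had 12172 counts in WT and 74 in S89G-DMP1, while Ddx3y had 0 and 1277. Genotype, sex-linked transcripts and cell makeup cannot be told apart in the astrocyte libraries, and in bulk samples fewer cells of a type and less RNA per cell cannot be told apart. All 6 NSC libraries held both Xist and Y-linked transcripts. Of the fibroblast and meningeal markers, Col1a2, Dcn, Lum, Tbx18 and Foxd1 were at 0 counts in them, while others were counted. Zic1 had 155 and 334 counts in WT and S89G-DMP1 NSCs, and Pdgfra had 117 and 63. That list summed to 41.3 to 49.2 CPM in WT and 63.2 to 69.4 CPM in S89G-DMP1 NSCs. The astrocyte list summed to 1460 to 1508 and 1978 to 2030 CPM, and the neuronal list to 77.4 to 87.2 and 28.0 to 31.9 CPM. The part of these marker differences in the NSC values below was not tested.

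The promoters of the 4 genes that the values below turn on are shown first, because a shared TCF/LEF motif would be a plain feature of genes of this pathway. Windows of 300 bases, from 250 before to 50 after the start site, were taken from RefSeq (GRCm38.p6), which gave 7 windows for 5 of the 10 genes. The motif, CTTTGAT or CTTTGAA on either strand, is in capitals where it occurs.
Wnt5b, minus strand, chr6:119449337-119449636: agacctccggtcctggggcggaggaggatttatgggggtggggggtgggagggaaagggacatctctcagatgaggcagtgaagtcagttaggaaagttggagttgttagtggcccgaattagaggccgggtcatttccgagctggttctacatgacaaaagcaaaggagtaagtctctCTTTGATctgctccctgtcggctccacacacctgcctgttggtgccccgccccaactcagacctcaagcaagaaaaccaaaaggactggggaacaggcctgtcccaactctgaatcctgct
Fzd1, minus strand, chr5:4758167-4758466: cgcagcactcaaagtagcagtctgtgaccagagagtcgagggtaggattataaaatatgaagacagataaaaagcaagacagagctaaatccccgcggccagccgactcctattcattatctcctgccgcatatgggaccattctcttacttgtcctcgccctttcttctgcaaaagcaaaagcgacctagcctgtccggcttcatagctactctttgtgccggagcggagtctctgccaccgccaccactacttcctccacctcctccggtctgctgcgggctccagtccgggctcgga
Frzb, minus strand, chr2:80447347-80447646: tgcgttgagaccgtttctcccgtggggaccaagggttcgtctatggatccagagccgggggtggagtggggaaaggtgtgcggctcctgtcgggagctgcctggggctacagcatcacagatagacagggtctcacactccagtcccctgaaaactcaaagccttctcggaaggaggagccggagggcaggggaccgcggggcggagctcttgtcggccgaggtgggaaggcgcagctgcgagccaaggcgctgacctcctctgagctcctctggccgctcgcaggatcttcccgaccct
Axin2, plus strand, chr11:108920099-108920398: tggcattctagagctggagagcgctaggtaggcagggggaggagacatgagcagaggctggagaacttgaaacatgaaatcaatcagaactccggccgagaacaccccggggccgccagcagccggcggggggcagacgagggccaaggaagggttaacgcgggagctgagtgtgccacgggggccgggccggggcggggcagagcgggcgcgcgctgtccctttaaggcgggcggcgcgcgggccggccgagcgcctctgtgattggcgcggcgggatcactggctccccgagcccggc

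Wnt5b had 3 windows, 1 for each of 3 start sites, and the one shown was picked because it held the motif, which the other 2 did not. The motif was in 1 of the 7 windows, on the strand of the gene 71 bases before the start site. Among 32851 windows of the same length, 8.65% held it. No match was found in the Axin2 window, although Axin2 is a textbook target, and this says only that these letters are not in this window. The windows differed in base composition, with 70.0% G and C for Axin2, 64.7% for Frzb, 55.0% for the Wnt5b window shown and 54.0% for Fzd1, beside a median of 52.7% over all windows.

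In the annotation of GRCm38, Fzd1 is a gene of 1 exon at chr5:4753839-4758035 on the minus strand, and Frzb has 6 merged exons at chr2:80411970-80447625 on the same strand. Wnt5b lies at chr6:119432531-119544347 and Axin2 at chr11:108920349-108950783. Exons of Wnt5a and Axin2 overlap antisense genes, Gm2670 over 358 bases and Gm11670 over 209 bases. Whether reads were counted by strand is not given in the sources used here, so reads of the pairs may not be told apart, and Gm2670 had 29 counts over both astrocyte libraries and Gm11670 had 9.

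In NSCs the genotypes differed beyond the spread of the libraries for Fzd1, while the values of the other members overlapped. Of the 10, 8 passed the filter on low counts, while Wnt5b and Dkk3 did not. Fzd1 was the only member of the 8 in which every S89G-DMP1 library lay below every WT library, and none lay above, where 16.0% of the 11194 genes tested lay below and 14.8% above. Over all genes tested, 30.7% did not overlap in either direction, so nothing is read from the number of members. The fold change was below 0 for 7 of the 8 on the log2 scale, against 49.4% of all genes tested. That count went from 4, in the fit without WT replicate 1, to 8, in the fit without S89G-DMP1 replicate 3.

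Among the ligands, Wnt5a, a ligand of non-canonical Wnt signaling, had 124, 118 and 127 CPM in the 3 WT NSC libraries and 124, 113 and 116 CPM in the S89G-DMP1 libraries. The groups overlapped, at 123 ± 4.35 and 118 ± 5.91 CPM (SD, n = 3 each), and the log2 fold change was -0.06 with a standard error of 0.08. Wnt5b, the closest relative of Wnt5a, was at the edge of detection, with 3, 9 and 1 counts in WT and 4, 2 and 3 in S89G-DMP1 NSCs. A count of 3 corresponds to between 1.16 and 1.28 CPM in these libraries, so a difference in Wnt5b was not detectable at this depth.

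Of the receptors, Fzd1 had 148, 148 and 134 CPM in WT NSCs and 120, 116 and 101 CPM in S89G-DMP1 NSCs. All 3 S89G-DMP1 values lay below all 3 WT values, with means of 143 ± 8.18 and 112 ± 10.3 CPM (SD, n = 3 each). The log2 fold change was -0.35 with a standard error of 0.08, and the S89G-DMP1 mean was 78.5% of the WT mean. It stayed between -0.40 and -0.28 when any 1 library was left out, and 15.9% of the genes tested had a difference of at least this size.

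The other 3 frizzleds were low in NSCs, and their groups overlapped. Fzd2 had 17.3, 13.2 and 13.98 CPM in WT and 13.5, 14.1 and 16.4 CPM in S89G-DMP1 NSCs, a log2 fold change of -0.01 with a standard error of 0.20. Fzd7 had 8.85, 11.7 and 7.99 CPM against 7.16, 10.7 and 8.82 CPM, a log2 fold change of -0.10 with a standard error of 0.25. Fzd8, with 11.8, 10.1 and 6.39 CPM against 9.27, 7.70 and 9.63 CPM, had a log2 fold change of -0.08 with a standard error of 0.25. In the authors' TPM values (transcript levels scaled for length), Fzd7 is listed at 0 in 4 and Fzd8 in 5 of the 6 NSC libraries, although both had between 16 and 30 counts in every one.

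The secreted antagonists were close to the limit of counting in NSCs. Frzb had 21, 13 and 19 counts in WT and 7, 10 and 20 in S89G-DMP1 NSCs, a log2 fold change of -0.47 with a standard error of 0.32. It was -0.97 without S89G-DMP1 replicate 3 and -0.19 without S89G-DMP1 replicate 1. Sfrp1 had 15, 9 and 10 counts against 5, 14 and 18, and its log2 fold change of 0.17 (standard error 0.36) was -0.18 without S89G-DMP1 replicate 3. The groups overlapped for both genes. Dkk3, a divergent member of the Dickkopf family, had 1 count over the 3 WT libraries and 2 over the 3 S89G-DMP1 libraries, so no fold is given.

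Axin2, the feedback inhibitor that reads out β-catenin signaling, was well counted. It had 74.6, 68.4 and 61.9 CPM in WT and 61.1, 68.5 and 67.4 CPM in S89G-DMP1 NSCs. The 2 groups overlapped, with means of 68.3 ± 6.34 and 65.6 ± 3.996 CPM (SD, n = 3 each) and a log2 fold change of -0.05 with a standard error of 0.10.

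**Figure D1:**
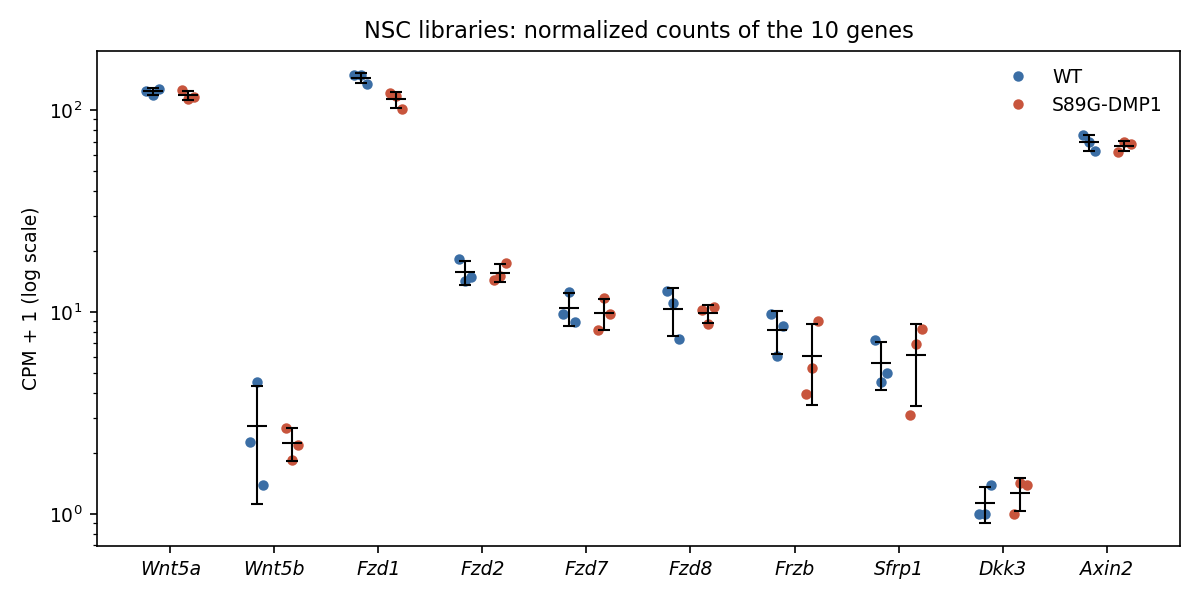
Normalized counts of the 10 genes in the 6 NSC libraries, as CPM + 1 on a log axis, with WT in blue and S89G-DMP1 in red. Points are libraries, and bars give the mean and SD of 3 libraries. Fzd1 is the gene whose S89G-DMP1 libraries (101 to 120 CPM) all lie below the WT libraries (134 to 148 CPM), and Wnt5b and Dkk3 lie at the bottom with at most 9 counts.

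In the astrocyte libraries the gaps between genotypes ranged from small, for Fzd8 and Wnt5a, to very large, for Frzb and Wnt5b. The 10 genes all had at least 10 counts in 1 or both libraries, and 4 of them, Wnt5b, Fzd1, Sfrp1 and Axin2, exceeded WT by 2-fold or more in the S89G-DMP1 library, where 17.3% of the 15680 genes counted were. Frzb and Dkk3 were 2-fold or more below WT, where 12.8% of all genes were. The choice of the 10 genes rests on this contrast, so nothing is read from these shares. With 1 library per genotype there is no replicate check, and the intervals below, exact Poisson intervals at 95%, cover counting error only. The median log2 ratio of all genes counted was 0.01 with edgeR's TMM scaling and 0.30 with library size alone, and small ratios shift with it. Folds are ratios of CPM, while log2 ratios include a prior count of 2, which brings the ratio of a low gene nearer to 0.

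Wnt5b had 23 counts (1.82 CPM) in the WT library and 360 counts (24.996 CPM) in the S89G-DMP1 library. Its CPM was 13.8-fold higher in S89G-DMP1, and its log2 ratio with the prior count was 3.68 (counting interval 3.17 to 4.46). Wnt5a, in contrast, had 2236 counts (177 CPM) in WT and 1957 counts (136 CPM) in S89G-DMP1. Its log2 ratio was -0.38 with TMM scaling and -0.09 with library size alone, so the 2 relatives differed in the size of the gap between the libraries.

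Fzd1 stood apart from the other 3 frizzleds. It had 782 counts (61.8 CPM) in the WT and 3276 counts (227 CPM) in the S89G-DMP1 astrocyte library, which was 3.68-fold higher, a log2 ratio of 1.88 (interval 1.77 to 1.995). Fzd7, with 2537 and 2005 counts (200 and 139 CPM), had a log2 ratio of -0.52, and Fzd2, with 1097 and 792 counts (86.6 and 55.0 CPM), had -0.65. Under library size alone these became -0.23 and -0.36. Fzd8, with 531 and 494 counts (41.9 and 34.3 CPM), had a log2 ratio of -0.29 with TMM scaling and 0.00 with library size alone, so no direction is given for it.

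The 3 antagonists went different ways. Frzb, a soluble frizzled-related protein first found in cartilage, had 3236 counts (256 CPM) in the WT library and 20 counts (1.39 CPM) in the S89G-DMP1 library. Its CPM was 184-fold lower, and its log2 ratio with the prior count was -7.38 (counting interval -8.24 to -6.89). Sfrp1, of the same family, had 651 counts (51.4 CPM) in WT and 4298 counts (298 CPM) in S89G-DMP1. This was 5.80-fold higher, a log2 ratio of 2.53 (interval 2.42 to 2.66). Dkk3 had 5439 counts (430 CPM) and 2630 counts (183 CPM), 2.35-fold lower by TMM scaling, a log2 ratio of -1.23 that was -0.94, and so under 2-fold, with library size alone. No NSC library, in contrast, held more than 1 count of Dkk3.

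Axin2 had 84 counts (6.63 CPM) in the WT library and 644 counts (44.7 CPM) in the S89G-DMP1 library. It was 6.74-fold higher, a log2 ratio of 2.73 (interval 2.42 to 3.10). Beside these values, the summed astrocyte and neural progenitor markers were higher and the summed fibroblast and meningeal markers lower in the S89G-DMP1 library, as given above, and their part in the values of the 10 genes was not tested. The mural list (6 genes) summed to 3266 and 3967 CPM in the WT and S89G-DMP1 libraries, but its genes went different ways. Acta2 (723 and 2468 CPM) was 2-fold or more higher, while Pdgfrb (929 and 158) and Rgs5 (192 and 2.71) were as far lower. The endothelial list (6) summed to 193 and 70.9 CPM with Cldn5 at 0 counts in both, and the microglial list (5) to 265 and 474 CPM. The oligodendrocyte list (4) summed to 17.3 and 20.5 CPM, and the neuronal list (5) to 67.6 and 24.9 CPM.

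**Figure D2:**
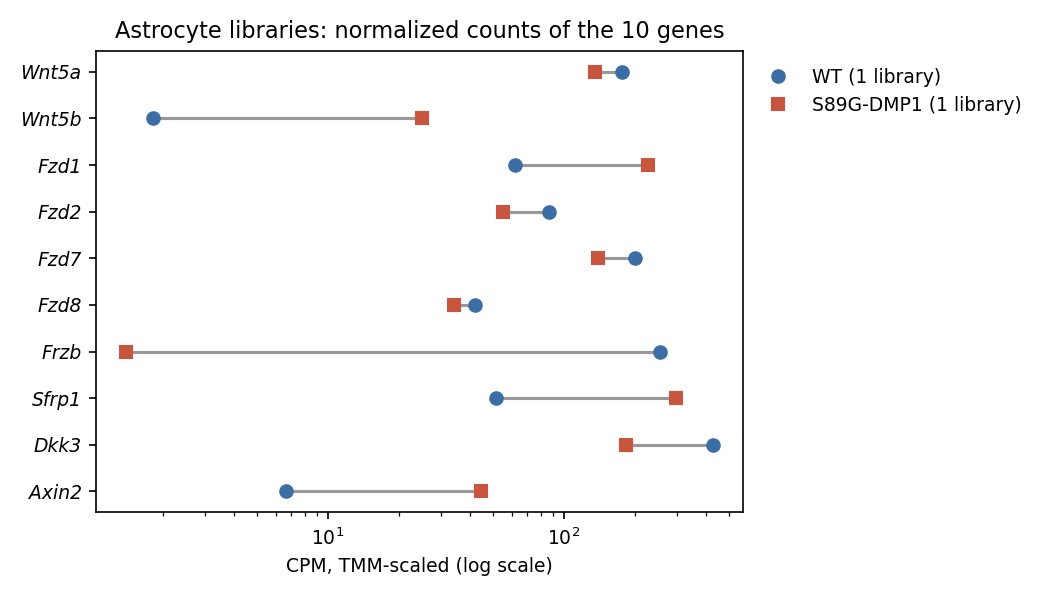
Normalized counts of the 10 genes in the WT (blue circle) and S89G-DMP1 (red square) astrocyte library, in TMM-scaled CPM on a log axis, with 1 library per genotype and so no error bar. Frzb spans the widest gap, with 256 CPM in WT against 1.39 CPM in S89G-DMP1, and Wnt5b, Fzd1, Sfrp1 and Axin2 lie to the right in S89G-DMP1.

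The genotype differences of the 2 cell types are set side by side for 4 members that were tested in NSCs and 2-fold or more apart in astrocytes. Fzd1 was lower in S89G-DMP1 NSCs (log2 fold change -0.35) and higher in the S89G-DMP1 astrocyte library (log2 ratio 1.88). Axin2 had -0.05 in NSCs and 2.73 in astrocytes, Sfrp1 had 0.17 and 2.53, and Frzb had -0.47 and -7.38. The astrocyte and NSC tables were made separately and with different aligners, and the difference between the cell types was not tested.

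**Figure D3:**
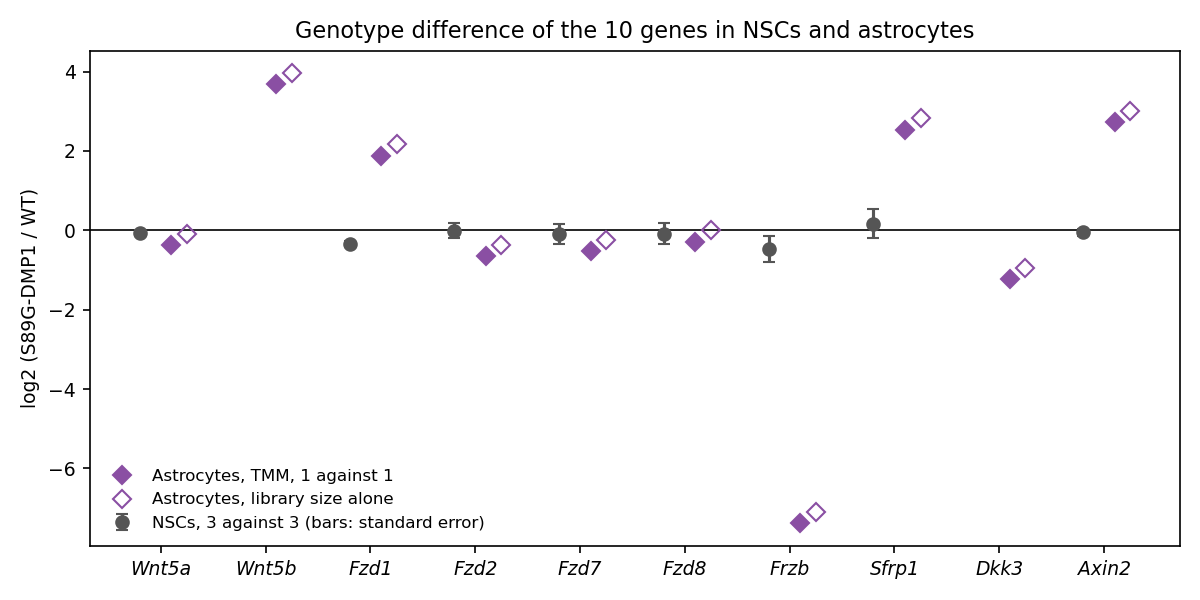
Log2 difference of S89G-DMP1 to WT for each of the 10 genes. Grey circles are NSCs (3 against 3 libraries, bars are standard errors, Wnt5b and Dkk3 not tested), filled purple diamonds are astrocytes with TMM scaling and open diamonds with library size alone (1 against 1). NSC values lie between -0.47 and 0.17, and astrocyte values between -7.38 and 3.68 with TMM scaling.

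Levels of different genes were compared per kilobase of exon, as CPM divided by the merged exon length of each gene (GENCODE M21). In WT NSCs the order was Fzd1 at 33.9 ± 1.94, Wnt5a at 15.6 ± 0.55, Axin2 at 12.3 ± 1.15 and Fzd2 at 4.02 ± 0.59 CPM per kilobase (SD, n = 3). Then came Frzb, Fzd7, Fzd8, Sfrp1 and Wnt5b, between 2.20 and 0.64 CPM per kilobase, and each of these overlapped its neighbour in the order across the 3 libraries. Dkk3 was last. The first 4 genes kept that order in S89G-DMP1 NSCs.

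In the WT astrocyte library, Dkk3 (128 CPM per kilobase) and Frzb (79.0) led, ahead of Fzd7 (44.2), Fzd2 (23.7), Wnt5a (22.6), Fzd1 (14.7), Sfrp1 (11.8) and Fzd8 (7.02), with Axin2 (1.20) and Wnt5b (0.68) last. In the S89G-DMP1 library, Sfrp1 (68.3 CPM per kilobase) led, followed by Dkk3 (54.4), Fzd1 (54.2), Fzd7 (30.7), Wnt5a (17.4), Fzd2 (15.0), Wnt5b (9.42), Axin2 (8.12) and Fzd8 (5.74), and Frzb (0.43) was last. Frzb thus went from the second place to the last and Sfrp1 from the seventh to the first.

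These orders depend on the length used. The length implied by the authors' FPKM values (fragments scaled for length and library total) was 2293 bases for Wnt5a and 1700 for Axin2, against 7823 and 5506 merged exon bases. By that length, Wnt5a (53.2 ± 1.88 CPM per kilobase) and Axin2 (39.9 ± 3.71) came before Fzd1 (33.9 ± 1.94) in WT NSCs (SD, n = 3).

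Within their families, the share held by the members varied. It ran from 28.4% of the Frzb, Sfrp and Dkk genes in S89G-DMP1 NSCs to 97.9% of them in the S89G-DMP1 astrocyte library, per kilobase of exon. Of the summed level of 19 Wnt genes per kilobase of exon, Wnt5a held 34.6% in WT NSCs, where Wnt7a held 34.4% and Wnt7b 25.8%, and 43.6% in the WT astrocyte library, where Wnt2 held 31.0%. In the S89G-DMP1 astrocyte library Wnt5a held 37.0%, and Wnt5b came next with 20.1%. Wnt7a (37.5%) came before Wnt5a (32.2%) in S89G-DMP1 NSCs. By the FPKM-implied length, Wnt5a held 47.2% in WT and 44.1% in S89G-DMP1 NSCs, 69.7% in the WT astrocyte library, where Wnt2 held 14.5%, and 62.7% in the S89G-DMP1 astrocyte library, where Wnt5b held 11.7%. Of 10 frizzleds, Fzd1 held 41.4% in WT and 34.8% in S89G-DMP1 NSCs, ahead of Fzd9 with 22.8% and 27.3%. With that length, Fzd3 came first among the frizzleds in NSCs, with 37.9% and 42.1%.

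In astrocytes the leading frizzled was Fzd7 in the WT library (39.3% of the family) and Fzd1 in the S89G-DMP1 library (36.1%, up from 13.1%). Antagonists of the Frzb, Sfrp and Dkk group summed to 300 and 126 CPM per kilobase in the WT and S89G-DMP1 astrocyte libraries, and to 8.50 and 9.88 in WT and S89G-DMP1 NSCs. Dkk3 (42.7%), Dkk2 (26.7%) and Frzb (26.4%) made up most of that sum in WT astrocytes, while Sfrp1 (54.3%) and Dkk3 (43.2%) did so in S89G-DMP1 astrocytes. In NSCs a gene outside the 10, Sfrp2, held the largest share, with 44.0% in WT and 52.9% in S89G-DMP1.

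**Figure D4:**
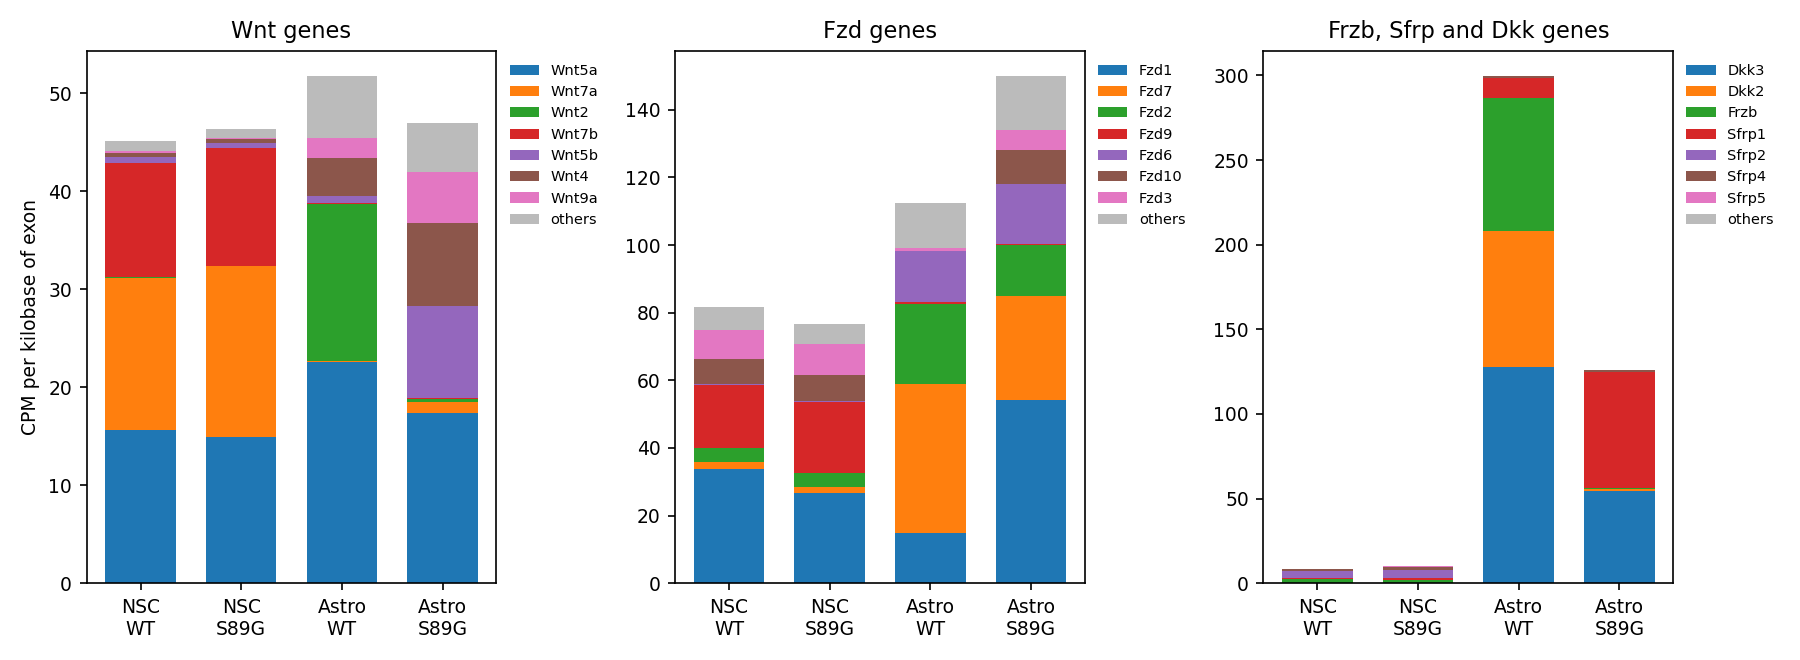
Levels of the Wnt, frizzled and secreted antagonist families in CPM per kilobase of exon, stacked by gene, for WT and S89G-DMP1 NSCs (means of 3 libraries) and astrocytes (1 library each). The antagonist stack falls from 300 to 126 between the astrocyte libraries and loses its Frzb and Dkk2 layers, and both NSC stacks are under 10.

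The genes whose levels across the 8 libraries followed each member most closely were found by Pearson's r of log2 CPM among 11726 genes. For Fzd7 this was Flnc (r = 0.998), for Dkk3 Adgra2 (0.999), for Fzd2 Arpc2 (0.999), for Wnt5a Plod3 (0.998) and for Fzd8 Plcb4 (0.998). Axin2 had Ccdc88c (0.997), Sfrp1 Drp2 (0.996), Fzd1 Slc22a23 (0.984), Frzb Nadk (0.981) and Wnt5b Tgfbr1 (0.971). The 8 points share 2 cell types processed apart, and 6 of them are NSCs, so that split enters the values. Within the 6 NSC libraries alone, r for the same pairs ran from 0.45 (Axin2) to 0.97 (Fzd7). Each gene was picked as the closest of the 11726, so nothing is read from the height of these values.

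Other genes of the pathway were taken from lists by role, 93 genes in all besides the 10. In NSCs 53 of them were tested, and 14 were called lower and 1 higher in S89G-DMP1, at an adjusted p under 0.05 (edgeR's quasi-likelihood test, p adjusted by Benjamini-Hochberg over all genes tested). This was 26.4% of the list lower, beside 8.76% of all genes lower and 7.08% higher (15.8% in either direction). The median log2 fold change was -0.01 for the list and 0.00 for all genes tested. DESeq2 called 4 of the 53, Celsr2, Ptk7, Tle2 and Wls, all among the 15, beside 851 of the 11194 genes tested. The lists were chosen with earlier results of these data known, so nothing is read from these shares. The marker differences between the NSC groups given above apply to these genes as well, and their part was not tested.

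Both genes of Wnt secretion fell in S89G-DMP1 NSCs. Wls, which carries Wnt proteins to the surface, had 95.2, 90.9 and 82.3 CPM in WT and 61.5, 56.1 and 56.6 CPM in S89G-DMP1, a log2 fold change of -0.62 (standard error 0.10, adjusted p = 6.9e-07, edgeR). Porcn, the enzyme that attaches the lipid to Wnt proteins, fell by 0.67 on the log2 scale (adjusted p = 0.012, edgeR), with 18.5, 17.5 and 19.2 CPM against 11.8, 8.99 and 13.6 CPM. The groups did not overlap for either gene, and the Porcn call was lost without S89G-DMP1 replicate 2, where the value was -0.53.

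Of 10 other receptors and co-receptors tested, 2 fell. Fzd5, a frizzled of β-catenin signaling, had a log2 fold change of -0.66 (adjusted p = 0.0046, edgeR), with 27.4, 25.6 and 22.4 CPM in WT and 16.4, 20.1 and 11.2 CPM in S89G-DMP1, and its call was lost without S89G-DMP1 replicate 3 (-0.46). Ptk7, a co-receptor of planar polarity, fell by 0.30 (adjusted p = 0.0021, edgeR). Neither of the 2 other ligands tested, Wnt7a (0.16) and Wnt7b (0.06), nor of the 2 other antagonists, Sfrp2 (0.50) and Sfrp4 (0.41), passed the test.

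Among 12 nuclear genes tested, 6 fell and 1 rose. The co-repressor Tle2 fell by 0.59 (adjusted p = 1.3e-08, edgeR), with 149, 139 and 163 CPM in WT and 103, 103 and 93.9 CPM in S89G-DMP1. Tcf7l1, a TCF factor that mostly represses, fell by 0.70 (adjusted p = 0.0077, edgeR), and Pygo1, a β-catenin coactivator, by 0.48 (adjusted p = 0.0043, edgeR). On the authors' TPM values the direction of Pygo1 turned, with log2 differences of 0.52 on log2(TPM + 1) and 0.76 on log2(TPM + 0.1). Tle4 (-0.27), Bcl9 (-0.29) and Bcl9l (-0.28) also fell, with adjusted p of 0.016, 0.029 and 0.030 (edgeR), whereas the co-repressor Tle1 rose by 0.42 (adjusted p = 0.015, edgeR). On log2(TPM + 1) and log2(TPM + 0.1), Bcl9l was at -0.0064 on both, so its fall was not seen there, and Bcl9 was at -0.66 and -0.68. Both activators and repressors of transcription were thus among those that fell.

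Of the remaining roles, Celsr2, an atypical cadherin of planar polarity, fell by 0.40 (adjusted p = 3.7e-06, edgeR). Nkd1, an inhibitor and target of the pathway, fell by 0.31, the kinase Csnk1e by 0.21 and the cell cycle target Ccnd1 by 0.12 (adjusted p = 0.019, 0.025 and 0.046, edgeR). Of 6 targets tested, Ccnd1 and Nkd1 were called. Of the 15 calls, 6 remained in each of the 6 edgeR fits that left out 1 library (Celsr2, Ptk7, Pygo1, Tcf7l1, Tle2 and Wls), and the other 9 were lost in at least 1.

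In the astrocyte libraries, 77 of the 93 pathway genes were counted. In S89G-DMP1, 21 of these (27.3%) exceeded WT by 2-fold or more and 13 (16.9%) were as far below it, beside 17.3% and 12.8% of all genes counted (30.1% in either direction). Their median log2 ratio was 0.24, beside 0.01 for all genes, and 0.53 beside 0.30 with library size alone. As in NSCs, nothing is read from these shares and medians, since the lists were chosen with earlier results known. The 5 lowest were the antagonist Dkk2 (3752 and 82 counts, 52.0-fold lower), the ligand Wnt2 (458 and 10, 52.1-fold lower), the enhancer Rspo2 (250 and 6, 47.4-fold lower), the target Sp5 (55 and 1, log2 ratio -4.37, interval -11.3 to -3.43) and the inhibitor Nkd2 (1717 and 148, 13.2-fold lower).

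The 5 highest were the receptor Fzd10 (8 and 476 counts, 52.3-fold higher), the planar polarity cadherins Celsr2 (57 and 2514, 38.8-fold higher) and Celsr1 (28 and 906, 28.4-fold higher), the antagonist Sostdc1 (0 and 35, at least 10.3-fold higher against a floor of 3 counts) and the receptor Lgr5 (2 and 40, log2 ratio 3.26, interval 2.19 to 7.23). Targets of the pathway did not move as 1 group, since Axin2 and Lgr5 were higher and Sp5 and Nkd2 lower. Of 9 planar polarity genes, 5 lay 2-fold or more above WT and 1 lay 2-fold or more below. The marker and sex-linked differences between the 2 libraries apply to these genes as well, and their part was not tested.

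**Figure D5:**
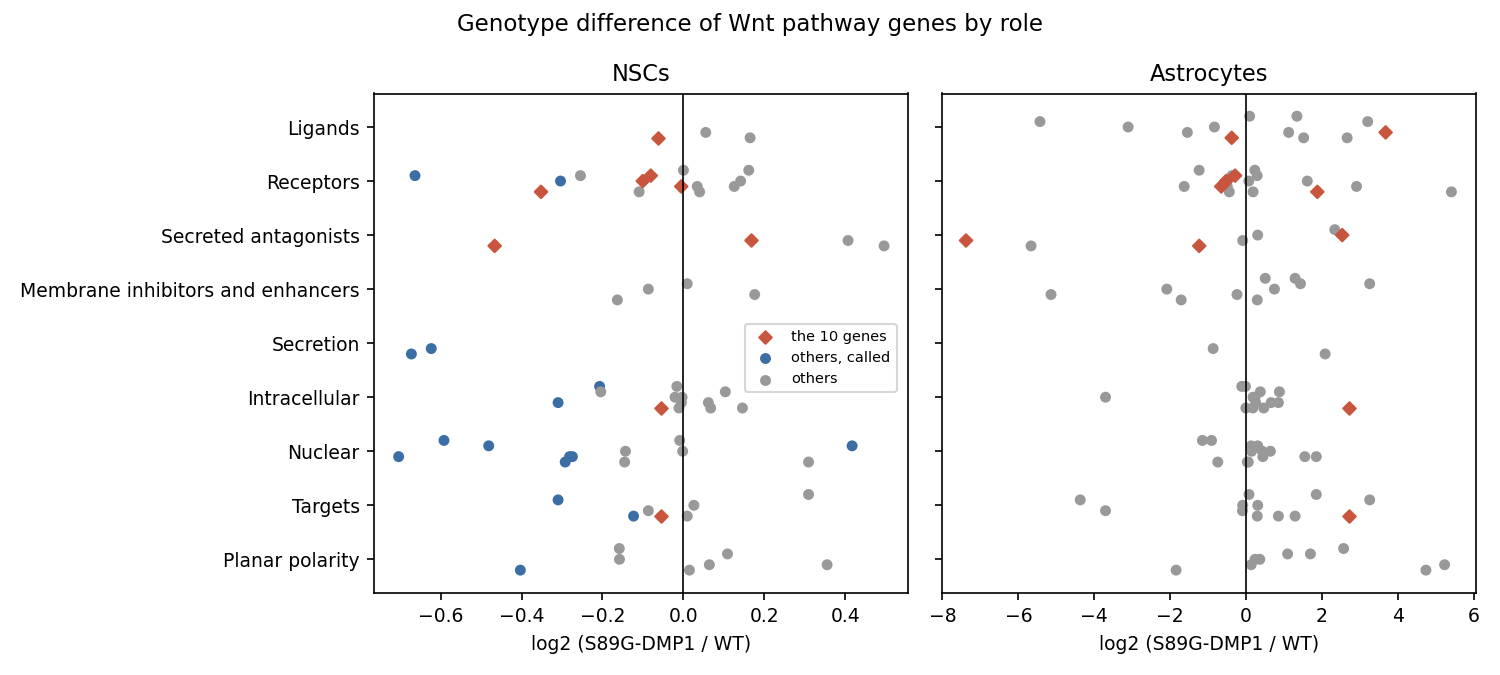
Log2 difference of S89G-DMP1 to WT for Wnt pathway genes by role, in NSCs (left) and astrocytes (right, TMM scaling), on different x axes. Red diamonds are the 10 genes, and blue dots are other genes called by edgeR in NSCs. Axin2, Nkd1, Nkd2, Tcf7, Lef1, Lgr5, Znrf3, Apcdd1 and Notum stand under 2 roles wherever they are shown. Sostdc1, at 0 counts in WT, is left out on the right. On the left most blue dots lie below 0 (14 of 15 genes), and on the right the genes spread from -7.38 for Frzb to 5.41 for Fzd10.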

How the data were processed

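The 2 astrocyte and 6 NSC libraries had been made with an NEB kit for Illumina, and whether counting used strand is not given in the sources used here. After discarding adapter-containing, undetermined and low-quality reads, the authors aligned the astrocyte reads with TopHat2 2.0.9 and Bowtie2 2.0.6, and deposited counts per gene and FPKM values. For the NSCs the authors deposited counts and TPM values, for which the submitters' processing notes name HISAT2, StringTie and featureCounts without versions, and GRCm38. The build for the astrocytes is not given in the sources used here. The FPKM values equal the counts divided by library total and 1 length per gene, within 1%.

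Samples were grouped by their titles. NSC counts were filtered with filterByExpr, which left 11194 genes, scaled by TMM, and compared with edgeR 4.0.16 (quasi-likelihood test, genotype the only term) in R 4.3.3, with Benjamini-Hochberg adjustment over all genes tested and a threshold of 0.05. Simulated data with known changes were used to test this procedure. Astrocyte log2 ratios used TMM-scaled CPM and a prior count of 2, for 15680 genes reaching 10 counts in 1 or both libraries, with no test. A library at 0 was set to a floor of 3 counts. Alternatives were DESeq2 1.42.0, limma 3.58.1 on log2(TPM + 1) and log2(TPM + 0.1), other scalings, filters and prior counts, libraries left out, and the replicate number as a block. The use of merged exon lengths was chosen after seeing the data.

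The 10 genes and all lists were chosen with earlier results of these data known. Genes are named if they are among the 10, called in NSCs, among the 5 highest or 5 lowest of the lists in astrocytes, closest to a member, or markers, and Wnt7a, Wnt7b, Sfrp2, Sfrp4, Fzd3 and Fzd9 were chosen after their values were seen, as were Daam1 and Prickle2. Gene names matched 98.9% of NSC and 98.5% of astrocyte identifiers. Chi-square per gene between NSC libraries of 1 genotype ranged from 1.07 to 1.51, near the value of 1 for counting noise, and between genotypes from 3.17 to 4.06, over 11136 genes. Protein sequences were not used here.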

Additional observations from a re-analysis of the deposited data

Results flagged for a closer look

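Results are flagged here where all 3 S89G-DMP1 NSC libraries lay on 1 side of all 3 WT libraries and the S89G-DMP1 astrocyte library lay on the other side of its WT library, for genes tested in NSCs. For Fzd1, the NSC libraries were lower in S89G-DMP1, while the astrocyte log2 ratio was 1.88. The same held at 2-fold or more for Porcn (astrocyte log2 ratio 2.08), Celsr2 (5.23), Daam1 (1.10) and Dmp1 itself, whose log2 ratio of 4.78 rests on 2 counts in WT (counting interval 3.82 to 8.77). It held with smaller gaps for Nkd1 (0.85), Bcl9l (0.44), Tcf7l1 (0.43) and Fzd5 (0.29). Tle4 (0.15, counting interval -0.10 to 0.40), Prickle2 (0.13, -0.02 to 0.29) and Bcl9 (0.034, -0.12 to 0.19) also met the rule. Their intervals include 0, so no astrocyte direction is given for them. Tle1 was higher in S89G-DMP1 NSCs and had an astrocyte log2 ratio of -0.91. Daam1, which links Dishevelled to actin, had a log2 fold change of -0.16 in NSCs that did not pass edgeR's test (adjusted p = 0.20). Prickle2 (-0.16 in NSCs) did not pass it either (adjusted p = 0.64, edgeR). The share of all genes that meet this rule was not counted, and 30.7% of genes tested did not overlap in NSCs. The difference between the cell types was not tested for any of these genes, and the astrocyte side rests on 1 library per genotype.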

How the results depend on the processing

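Of the NSC genes tested, 1773 (792 higher, 981 lower) were called by edgeR, 851 (348 higher, 503 lower) by DESeq2, 122 by limma on log2(TPM + 1) and 111 on log2(TPM + 0.1). For the 53 pathway genes the counts were 15, 4, 1 and 1. The cause was not tested. Pygo1 reversed on TPM, from -0.48 to 0.52 (TPM + 1) and 0.76 (TPM + 0.1). With 1 library left out, edgeR called 1363 to 1659 genes and 10 to 13 pathway genes (9 to 12 lower, 0 to 1 higher), and the number of the 8 tested members below 0 ranged from 4 to 8, beside 7 with all libraries. Csnk1e, Bcl9 and Ccnd1 were each lost in 5 of those 6 fits and without the count filter, Bcl9l and Tle4 in 3, and Nkd1 and Tle1 in 2. Replicate numbers did not pair the samples (correlations of deviations 0.03, -0.01 and -0.02), and with the replicate number as a block 1845 genes and 16 pathway genes were called.

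For astrocytes, 4723 genes were at least 2-fold apart, and 3066 with at least 10 counts in both libraries, where pathway genes went from 34 to 21, since fewer genes were counted. The 6 members at least 2-fold apart became 5 with library size alone and on FPKM, where Dkk3 fell under 2-fold. Depth limits Wnt5b, Dkk3, Frzb and Sfrp1 in NSCs, and no replicate limits all astrocyte values.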
